A study of Mus musculus with 24 samples.

Results

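The T helper cytokine genes described here are 9 of the 54446 gene rows in a raw count table of mouse CD4+ T cells. They were chosen by gene symbol as cytokines that T helper cells secrete, and are Il2, Il3, Il4, Il10, Il17a, Il21, Il22, Ifng and Csf2. Splenic CD4+ T cells came from 3 mice labelled wild type (WT, numbered 1, 3 and 4) and 3 mice labelled AIM2-/- (written Aim2-/- here, numbered 1, 2 and 4), both of C57BL6 background. Each mouse gave 4 libraries, 1 of unstimulated cells (0 h) and 1 each of cells stimulated with anti-CD3/CD28 for 3, 6 and 24 h, making 24 libraries in 8 groups of 3. Both genotypes received the same stimulation, so the controls of the genotype comparison were stimulated as well. The Aim2 deletion was present in the whole animal and not in T cells alone, and the 0 h cells were the only unstimulated ones among these libraries. Aim2 encodes a cytosolic DNA sensor, and the study asked how its loss changes CD4+ T cells.

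T helper cells are CD4+ T cells that act on other cells mainly through secreted cytokines. Engagement of the T cell receptor together with CD28 switches on cytokine genes, and the choice of gene defines the subset: IFNγ for Th1, IL-4 for Th2, IL-17A and IL-22 for Th17, and IL-21 for follicular helper and Th17 cells. IL-2, IL-3 and GM-CSF (encoded by Csf2) are growth factors shared by several subsets, and IL-10 restrains immune responses. Cytokine mRNAs are short lived, and many carry AU-rich elements in the 3′ untranslated region (3′UTR) that are known to promote their decay.

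The AU-rich elements are shown first, because such elements act on how long a cytokine mRNA lasts. In the annotated 3′UTR of the longest coding transcript, the pentamer ATTTA occurred 9 times in Csf2, 9 times in Il21, 7 times in Il2, 7 times in Il17a, 6 times in Il10, 6 times in Il22, 6 times in Ifng, 2 times in Il4 and 1 time in Il3. With 3 or more copies in 7 of 9 members, this compares with 26.3% of the 16067 mouse 3′UTRs of 101 to 2578 bases, the length range of the members. The longer form TTATTTATT was found in 4 members (Il2, Il21, Il22 and Csf2) and in 5.52% of those 3′UTRs. Counts of overlapping copies are included and only the sense strand was searched. The annotated 3′UTRs of Il3 and Il4 were only 101 and 104 bases long, so their raw counts are not comparable with those of longer 3′UTRs. Windows of 30 bases follow for the 6 members that rose after stimulation, in GRCm38, written 5′ to 3′ as DNA on the strand of the gene, with each ATTTA in capitals.
Il2, chr3:37121040-37121069, minus strand: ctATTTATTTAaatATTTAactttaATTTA
Il3, chr11:54265303-54265332, minus strand: atgccatcaaatgtcttatcaATTTAtcta
Csf2, chr11:54247325-54247354, minus strand: taaatATTTATTTATTTATTTATTTAtttt
Ifng, chr10:118445332-118445361, plus strand: cctATTTAttaatATTTAaaactATTTAta
Il4, chr11:53612491-53612520, minus strand: atttttaatATTTAtatATTTAtaattcat
Il17a, chr1:20734203-20734232, plus strand: ATTTAtatgagctATTTAtgaatctATTTA
Csf2 carried the densest run, with 5 copies in its window and 28.4 per kb over its 3′UTR, against a median of 1.15 per kb over the 3′UTRs of that length range. A match is a description of letters and no measurement of decay was made.

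Promoter windows of 300 bases (250 before the start site and 50 from it on; RefSeq, GRCm38.p6) were at hand for 8 of the 9 members. On both strands, GGAAA, the core that NFAT factors bind, occurred 5 times in the window of Il4 at the upstream of its 2 start sites and 2 times in that of Il2. Among the 9 windows of members (Il4 has 2), 8 held GGAAA at least 1 time, with 0 copies in Il17a, 1 each in Il3, Il22, Ifng and the other window of Il4, and 3 in Il21; 4 of the 9 held it at least 2 times and 3 at least 3 times. Of all 32851 windows, 61.3% held GGAAA at least 1 time, 26.7% at least 2 times, 9.42% at least 3 times and 0.728% at least 5 times. The AP-1 motif TGANTCA was present among the members in the window of Il17a alone, and in 7.81% of all windows. Both windows are printed because Il2 and Il4 are the classic targets of the calcium-dependent factor NFAT, with GGAAA (or TTTCC, its reverse complement) in capitals.
Il2, chr3:37125905-37126204, minus strand: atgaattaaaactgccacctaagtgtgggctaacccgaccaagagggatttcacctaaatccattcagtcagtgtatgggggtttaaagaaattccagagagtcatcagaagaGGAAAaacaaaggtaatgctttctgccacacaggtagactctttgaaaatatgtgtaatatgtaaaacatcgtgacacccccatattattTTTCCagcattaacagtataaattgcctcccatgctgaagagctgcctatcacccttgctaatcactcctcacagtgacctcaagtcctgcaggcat
Il4, chr11:53618616-53618915, minus strand: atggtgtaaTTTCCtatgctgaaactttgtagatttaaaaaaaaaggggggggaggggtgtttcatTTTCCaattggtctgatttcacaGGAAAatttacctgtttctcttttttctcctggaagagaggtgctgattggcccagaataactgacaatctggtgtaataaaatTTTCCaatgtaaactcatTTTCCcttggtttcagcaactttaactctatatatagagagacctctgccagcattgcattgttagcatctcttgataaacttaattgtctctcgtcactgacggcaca
Counted from the start site, the Il2 matches lay at -137 to -133 and -47 to -43, and the Il4 matches between -241 and -55. In the window of Csf2, which is set on a RefSeq start site 232 bases upstream of the GENCODE one, GGAAA occurred 3 times.

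Libraries held 19715161 to 21627018 counts, and values are given as CPM, counts per 1e6 counts with TMM-scaled library sizes. Of 15325 genes tested, all 9 members passed the filter on low counts. Il3, Il17a and Il22 had 10 or more counts in only 0, 1 and 0 of the 6 libraries of 0 h and passed through stimulated libraries. Since Il3 and Il17a were high there, their difference from 0 h was largely fixed by the filter. Aim2 checked the labels. Its 0 h level was 75.0 CPM in WT mouse 3, 67.5 CPM in WT mouse 4, and between 15.7 and 20.1 CPM in Aim2-/- mice. A value of 21.5 CPM, near the Aim2-/- level, was found in the mouse labelled WT 1. With 17.0, 11.5 and 5.57 CPM at 3, 6 and 24 h, its Aim2 level went against its label at every time. Its basophil and mast cell marker sums, given below, lay with those of the other WT mice and apart from those of the Aim2-/- mice. The reason for its Aim2 level was not tested. Genotype results are therefore given with and without the mouse labelled WT 1. The 8 defining CD4+ T cell markers summed to 3539 to 5094 CPM in WT and 3555 to 5301 CPM in Aim2-/- libraries. Markers of other cells were present and differed by genotype: the 8 basophil and mast cell markers summed to 20.5 to 34.3 CPM in WT and 73.3 to 243 CPM in Aim2-/- libraries, and the 6 myeloid markers to 13.0 to 52.1 CPM and 28.0 to 325 CPM. No marker of these lists was at 0 in all libraries of a group. In bulk RNA, fewer cells of a type and less RNA per cell cannot be told apart.

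Stimulation was compared with 0 h within each genotype by edgeR's quasi-likelihood F test, adjusted over all 15325 genes, and a gene is described as having risen or fallen where its adjusted p is under 0.05. In WT cells 6 of the 9 members rose at 3 h (16.2% of all genes rose), the same number at 6 h (26.4%) and the same number at 24 h (36.6%). In Aim2-/- cells 6 members rose at each time, against 16.1%, 28.5% and 36.8% of all genes. In each of these 6 comparisons the members that rose were Il2, Il3, Il4, Il17a, Ifng and Csf2. Among the 6 members with 10 or more counts at 0 h in every mouse, which leaves out Il3, Il17a and Il22, 4 rose in each comparison. Of the other members Il10 fell at 24 h in both genotypes and Il21 fell at 24 h in WT cells, where 34.8% (WT) and 33.5% (Aim2-/-) of all genes fell. The median log2 fold change over these 6 members was 2.66, 3.74 and 2.26 at 3, 6 and 24 h in WT cells and 2.36, 3.08 and 2.56 in Aim2-/- cells. The median over all genes tested lay between -0.01 and 0.08. At 3 h without the mouse labelled WT 1, 5 members rose (10.9% of all genes), since Ifng no longer passed the test (log2 fold change 1.57, edgeR adjusted p = 0.0648).

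**Figure D1:**
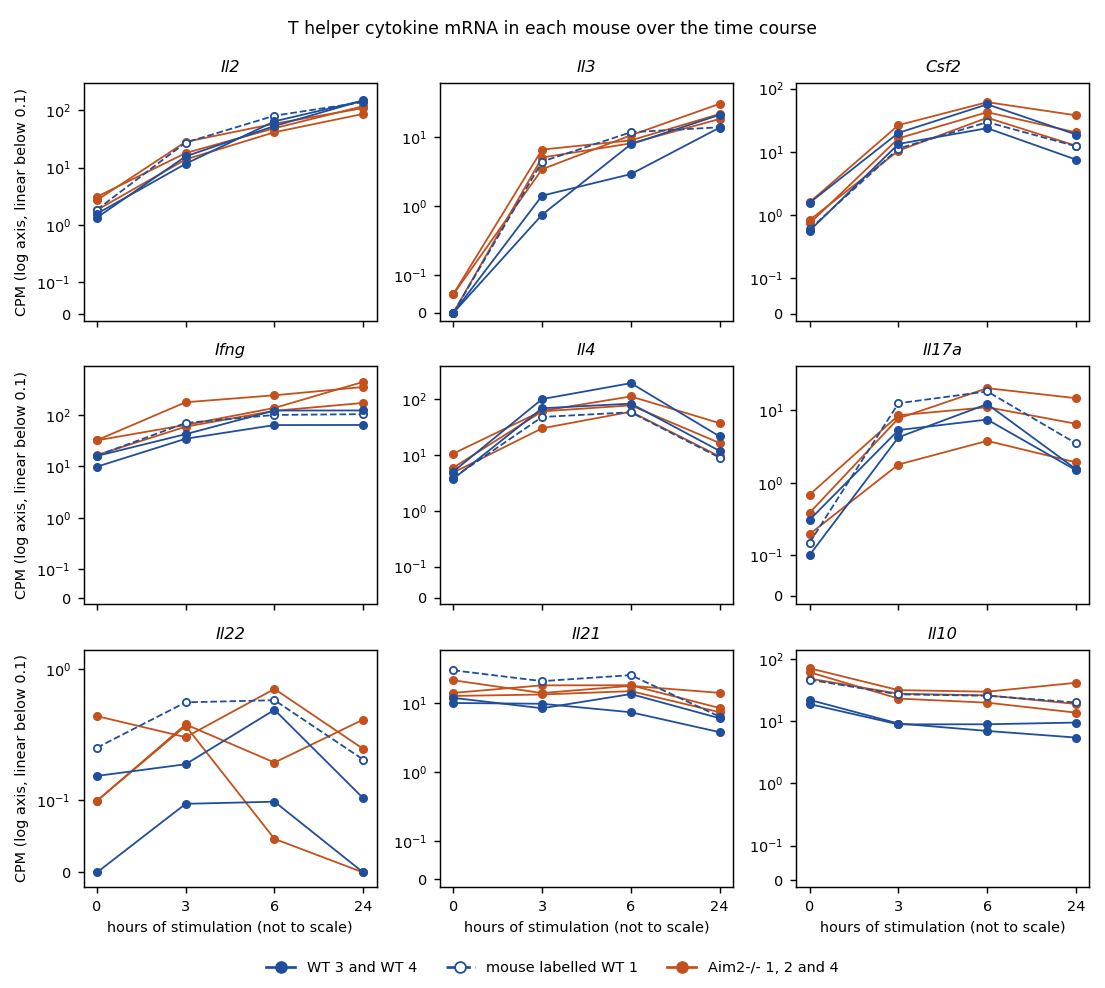
CPM of the 9 cytokine genes (vertical axes, logarithmic above 0.1 CPM and linear below) in each mouse at 0, 3, 6 and 24 h of stimulation (horizontal axes, spaced evenly); each line is 1 mouse, blue for WT, dashed with open circles for the mouse labelled WT 1, and orange for Aim2-/-. Il2 climbs at every step to between 86.4 and 149 CPM at 24 h, Il4, Il17a and Csf2 turn down after 6 h, and Il10 is highest at 0 h.

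Among the shared growth factors, Il2 (chr3:37120523-37125959), which drives T cell proliferation, rose without a break. Its level in WT mice 1, 3 and 4 was 1.85, 1.34 and 1.57 CPM at 0 h, 27.4, 15.7 and 11.7 CPM at 3 h, 80.5, 53.2 and 64.2 CPM at 6 h and 139, 149 and 148 CPM at 24 h. In Aim2-/- mice 1, 2 and 4 it was 3.10, 1.82 and 2.71 CPM at 0 h, 18.0, 13.9 and 28.2 CPM at 3 h, 48.7, 41.5 and 58.4 CPM at 6 h and 118, 86.4 and 109 CPM at 24 h. No range overlapped that of the time before it, and the 24 h values of the 3 WT mice differed by no more than 1.07 times. The log2 fold change over 0 h was 3.52 ± 0.33, 5.37 ± 0.33 and 6.51 ± 0.34 (SE) in WT cells at 3, 6 and 24 h, and 2.97 ± 0.31, 4.28 ± 0.31 and 5.36 ± 0.32 in Aim2-/- cells. Within a mouse the 24 h level was 75.0, 111 and 93.9 times that of 0 h in WT mice 1, 3 and 4 and 38.1, 47.4 and 40.3 times in Aim2-/- mice 1, 2 and 4, so the ranges of the 2 genotypes did not overlap. Il2 rose further from 3 to 6 h (1.85 in WT and 1.31 in Aim2-/- cells, on the log2 scale) and from 6 to 24 h (1.14 and 1.08), with edgeR adjusted p at most 0.00125.

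Il3 (chr11:54265303-54267277), a growth factor of mast cells, basophils and early progenitors, began from no counts at all in the 3 WT libraries of 0 h and from 1, 0 and 1 counts in the Aim2-/- libraries. In WT mice 1, 3 and 4 it reached 4.44, 1.42 and 0.748 CPM at 3 h, 11.9, 2.92 and 7.94 CPM at 6 h and 14.0, 13.9 and 21.3 CPM at 24 h. The Aim2-/- values were 3.44, 5.09 and 6.64 CPM at 3 h, 10.7, 8.18 and 9.05 CPM at 6 h and 30.8, 18.5 and 21.9 CPM at 24 h. Every stimulated library thus lay above every library of 0 h. Against a floor of 3 counts per library, Il3 was at least 14.5-fold higher at 3 h, at least 49.7-fold higher at 6 h and at least 108-fold higher at 24 h in WT cells. The same bounds in Aim2-/- cells were 34.4, 63.4 and 162. No p is given for these bounds, since Il3 entered the test through the stimulated libraries. At 3 h the WT mice differed by 5.94 times in Il3 and the Aim2-/- mice by 1.93 times.

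Csf2 (chr11:54247271-54249667) encodes GM-CSF, a growth factor of granulocytes and macrophages, and lies 15.6 kb from Il3 with no annotated protein-coding gene between them. In WT mice 1, 3 and 4 it stood at 0.600, 0.569 and 1.57 CPM at 0 h, 11.3, 13.4 and 19.999 CPM at 3 h, 29.5, 23.7 and 56.4 CPM at 6 h and 12.3, 7.55 and 18.8 CPM at 24 h. The level in Aim2-/- mice 1, 2 and 4 was 1.60, 0.837 and 0.738 CPM at 0 h, 26.5, 10.5 and 16.4 CPM at 3 h, 61.2, 34.7 and 42.4 CPM at 6 h and 37.9, 12.5 and 20.3 CPM at 24 h. The 6 h library was the highest in every mouse. The log2 fold change over 0 h was 4.02 ± 0.56, 5.31 ± 0.57 and 3.81 ± 0.56 (SE) in WT cells and 4.06 ± 0.54, 5.44 ± 0.56 and 4.47 ± 0.55 in Aim2-/- cells. From 6 to 24 h Csf2 fell by 1.504 on the log2 scale in WT cells (edgeR adjusted p = 0.00612), a call lost without the 6 h library of WT mouse 4 (adjusted p = 0.0589). In Aim2-/- cells the change of -0.97 missed the threshold (adjusted p = 0.0623) and passed it with mouse as a block (-1.06, adjusted p = 2.3e-06). Although they are neighbours, Il3 and Csf2 thus differed in time course: Il3 was highest at 24 h in 6 of 6 mice and Csf2 at 6 h in 6 of 6.

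Ifng (chr10:118441046-118445892), the Th1 cytokine that activates macrophages, was already present at 0 h. In WT mice 1, 3 and 4 it measured 16.1, 9.82 and 15.9 CPM at 0 h, 69.3, 34.2 and 42.1 CPM at 3 h, 99.2, 63.1 and 121 CPM at 6 h and 103, 63.3 and 121 CPM at 24 h. Among Aim2-/- mice 1, 2 and 4 it measured 31.9, 16.5 and 32.0 CPM at 0 h, 63.5, 58.7 and 175 CPM at 3 h, 136, 119 and 239 CPM at 6 h and 435, 169.6 and 346 CPM at 24 h. The WT values were level between 6 and 24 h, where 96.6% to 99.6% of each mouse's highest value was already reached at 6 h, against 31.2% to 70.3% in the Aim2-/- mice. The log2 fold change over 0 h was 1.80 ± 0.46, 2.76 ± 0.46 and 2.78 ± 0.46 (SE) in WT cells and 1.88 ± 0.44, 2.62 ± 0.45 and 3.56 ± 0.47 in Aim2-/- cells. From 6 to 24 h the change was 0.02 in WT cells (edgeR adjusted p = 0.972) and 0.95 in Aim2-/- cells (adjusted p = 0.0634, and 0.000879 with mouse as a block). The difference between these 2 steps was not tested.

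Il4 (chr11:53602982-53618669), the Th2 cytokine that drives IgE switching, rose early and then fell. Its level in WT mice 1, 3 and 4 was 3.90, 3.72 and 5.02 CPM at 0 h, 47.8, 68.4 and 99.9 CPM at 3 h, 58.0, 82.9 and 193 CPM at 6 h and 8.92, 11.8 and 21.4 CPM at 24 h. In Aim2-/- mice 1, 2 and 4 it was 10.6, 4.83 and 5.91 CPM at 0 h, 61.4, 29.9 and 60.2 CPM at 3 h, 111, 59.2 and 77.1 CPM at 6 h and 37.0, 9.37 and 16.3 CPM at 24 h. By 24 h it had dropped to 11.1% to 15.4% of the 6 h level in WT mice and to 15.8% to 33.2% in Aim2-/- mice. The log2 fold change over 0 h was 4.09 ± 0.55, 4.72 ± 0.56 and 1.73 ± 0.54 (SE) in WT cells and 2.83 ± 0.52, 3.54 ± 0.53 and 1.56 ± 0.51 in Aim2-/- cells. From 6 to 24 h Il4 fell in both genotypes, with log2 changes of -2.99 in WT and -1.98 in Aim2-/- cells (edgeR adjusted p = 3.67e-05 and 0.00169). The rise at 24 h was the least secure: the adjusted p was 0.0549 without the 24 h library of WT mouse 4, 0.144 without the 24 h library of Aim2-/- mouse 1, 0.0631 without Aim2-/- mouse 1 and 0.0524 without Aim2-/- mouse 4. Basophils also make IL-4, and beside these values stand the basophil and mast cell marker sums, with 7 of the 8 markers higher in every Aim2-/- than in every WT library at each time. Their part in the Il4 level was not tested.

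Il17a (chr1:20730905-20734496), the Th17 cytokine that recruits neutrophils, was close to undetected at 0 h, with 3, 6 and 2 counts in WT mice 1, 3 and 4 and 8, 4 and 14 counts in Aim2-/- mice 1, 2 and 4. In WT mice it rose to 12.5, 5.34 and 4.25 CPM at 3 h and 18.2, 7.45 and 12.2 CPM at 6 h, and stood at 3.50, 1.49 and 1.54 CPM at 24 h. In Aim2-/- mice it rose to 7.74, 1.79 and 8.52 CPM at 3 h and 20.2, 3.79 and 11.02 CPM at 6 h, and stood at 14.7, 1.91 and 6.52 CPM at 24 h. Aim2-/- mouse 2 was the lowest of its group at every time. The log2 fold change over 0 h was 5.26 ± 0.93, 6.03 ± 0.93 and 3.50 ± 0.96 (SE) in WT cells and 3.81 ± 0.83, 4.76 ± 0.84 and 4.16 ± 0.83 in Aim2-/- cells. From 6 to 24 h Il17a fell by 2.53 in WT cells (edgeR adjusted p = 0.00444), while the change in Aim2-/- cells was -0.60 (adjusted p = 0.456) and reached adjusted p = 0.0238 with mouse as a block. At 24 h WT mice retained 12.7% to 20.01% of their 6 h level and Aim2-/- mice 50.5% to 72.8%. These ranges did not overlap, and this difference was not tested.

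Il22 (chr10:118204942-118210047), which acts on epithelial cells, was near the limit of detection, with 0 to 16 counts in a library and at most 0.703 CPM. No comparison with 0 h called it, with log2 fold changes from -0.38 to 1.49. Its values are uncertain also because the near-identical copy Iltifb (0 to 4 counts) is 97.4% identical over the aligned transcripts, so that reads could be shared or dropped in counting.

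Il21 (chr3:37222759-37232636), which supports B cells and follicular helper T cells, lies 96.8 kb from Il2 and did not share its rise. In WT mice 1, 3 and 4 it held 30.1, 10.1 and 11.97 CPM at 0 h, 20.9, 9.82 and 8.46 CPM at 3 h, 25.6, 7.40 and 13.6 CPM at 6 h and 6.38, 3.80 and 6.06 CPM at 24 h. Levels in Aim2-/- mice 1, 2 and 4 were 21.6, 12.8 and 14.1 CPM at 0 h, 14.1, 13.4 and 18.2 CPM at 3 h, 17.9, 14.97 and 18.2 CPM at 6 h and 14.1, 7.41 and 8.52 CPM at 24 h. Within the WT groups, the mouse labelled WT 1 was the highest at each time. At 24 h Il21 fell by 1.68 ± 0.45 (SE) on the log2 scale in WT cells (edgeR adjusted p = 0.00217), and the change in Aim2-/- cells was -0.69 ± 0.43 (adjusted p = 0.161, and 0.00619 with mouse as a block). At 3 and 6 h the log2 changes lay between -0.41 and 0.08, and none passed the test.

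Il10 (chr1:131019845-131024974), the regulatory cytokine of the set, was highest before stimulation in 6 of 6 mice. Its level in WT mice 1, 3 and 4 was 46.4, 22.0 and 18.8 CPM at 0 h, 27.0, 9.16 and 8.88 CPM at 3 h, 25.6, 6.96 and 8.91 CPM at 6 h and 19.96, 5.45 and 9.50 CPM at 24 h. In Aim2-/- mice 1, 2 and 4 it was 70.8, 61.2 and 48.4 CPM at 0 h, 31.6, 23.1 and 27.6 CPM at 3 h, 29.8, 19.8 and 26.0 CPM at 6 h and 41.4, 13.7 and 18.9 CPM at 24 h. The log2 change from 0 h at 3, 6 and 24 h was -0.95 ± 0.53, -1.07 ± 0.53 and -1.32 ± 0.54 (SE) in WT cells, with edgeR adjusted p of 0.184, 0.101 and 0.0334. In Aim2-/- cells it was -1.13 ± 0.52, -1.25 ± 0.52 and -1.28 ± 0.52, with adjusted p of 0.108, 0.0501 and 0.034. With mouse as a block, which compares each mouse with itself, Il10 fell at all 3 times in both genotypes, with adjusted p at most 0.000347. In that fit 21.5%, 29.1% and 37.7% of all genes fell in WT cells and 20.3%, 27.1% and 36.8% in Aim2-/- cells. Il10 also fell at 3 and 6 h in WT cells without the mouse labelled WT 1 (-1.18 and -1.36, adjusted p = 0.0367 and 0.0091). Without the block, the 24 h call was lost when any of the WT libraries 1 at 0 h, 3 at 24 h or 4 at 24 h was left out (adjusted p = 0.178, 0.118 and 0.0984), or WT mouse 3 or 4 (0.0818 and 0.0573). In Aim2-/- cells it was lost without library 1 or 2 of 0 h (0.0718 and 0.0537), library 2 or 4 of 24 h (0.135 and 0.11), or mouse 2 or 4 (0.202 and 0.131).

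**Figure D2:**
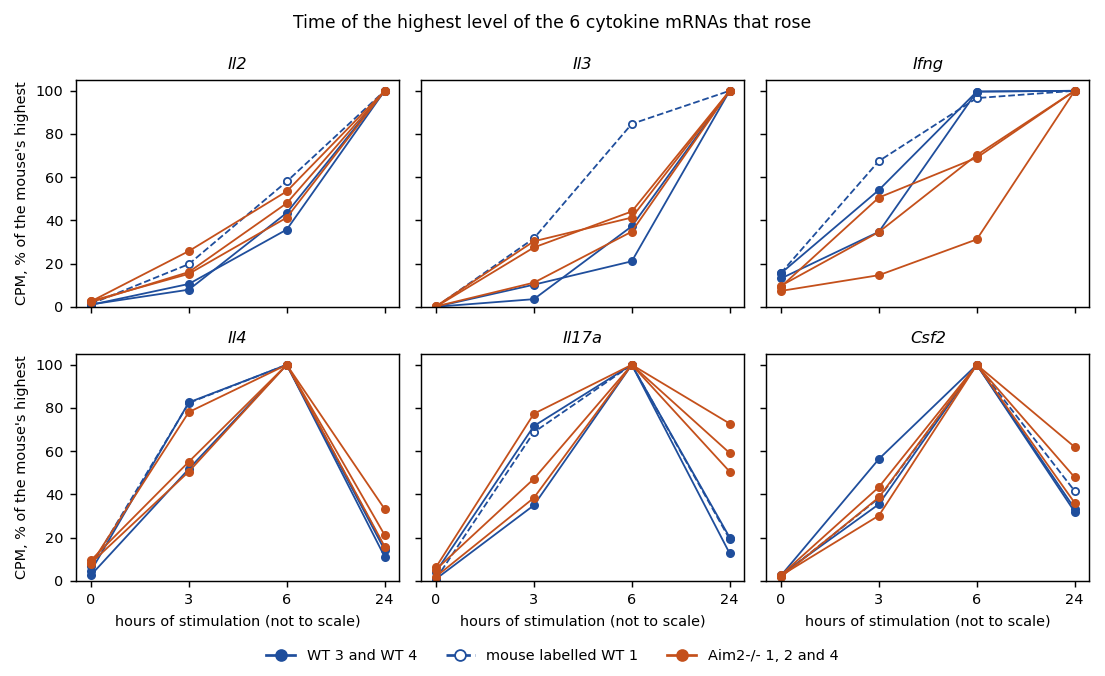
CPM of the 6 cytokine genes that rose, as a percentage of the highest value of the same mouse (vertical axes), at 0, 3, 6 and 24 h of stimulation (horizontal axes, spaced evenly), 1 line per mouse in the colours WT blue, mouse labelled WT 1 dashed with open circles, Aim2-/- orange. Il2, Il3 and Ifng reach 100% at 24 h and Il4, Il17a and Csf2 at 6 h in all 6 mice, the Ifng of WT mice being level from 6 h on (96.6% to 99.6%), and the 24 h share of Il17a is 12.7% to 20.01% in WT and 50.5% to 72.8% in Aim2-/- mice.

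Of the 6 genes that rose, Il2 and Il3 were highest at 24 h and Il4, Il17a and Csf2 at 6 h, in 6 of 6 mice each. Ifng was highest at 24 h in the 3 Aim2-/- mice, while in the 3 WT mice its 6 and 24 h values were level, as given above. The 3′UTRs of Il2, Il3 and Ifng held 7, 1 and 6 copies of ATTTA and those of Il4, Il17a and Csf2 2, 7 and 9. Il21 was highest at 0 h in 3 mice and at 6 h in 3 mice. From 3 to 6 h, 3 members rose in WT cells (Il2, Il3 and Csf2; 14.2% of all genes rose) and 2 in Aim2-/- cells (Il2 and Csf2; 13.4%). With mouse as a block the counts were 6 (18.8%) and 5 (20%), with Ifng, Il4 and Il17a called in addition in both genotypes, all of them higher at 6 h. The rise of Csf2 over this step was lost without any 1 of several libraries, with adjusted p of up to 0.213 in WT cells (without the 6 h library of mouse 4) and up to 0.132 in Aim2-/- cells (without mouse 4). That of Il3 in WT cells was lost without library 3 or 4 of 3 h or library 1 of 6 h (adjusted p = 0.0615, 0.0721 and 0.083) or without mouse 4 (0.145). From 6 to 24 h, Il2 rose and Il4, Il17a, Il21 and Csf2 fell in WT cells (29.6% of all genes rose and 28% fell), the call of Il21 being lost without the 6 h library of mouse 1 (adjusted p = 0.0787). In Aim2-/- cells Il2 and Il3 rose and Il4 fell over this step (27.4% and 27%), and with mouse as a block 7 of 9 members changed (62.9% of all genes called), namely Il2, Il3 and Ifng higher and Il4, Il17a, Il21 and Csf2 lower. The rise of Il3 from 6 to 24 h in Aim2-/- cells was lost when any 1 mouse was left out (adjusted p from 0.0747 to 0.105).

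To order the genes by abundance, CPM was divided by transcript length in kb. At 0 h Il10 was the most abundant member in both genotypes, at 22.2 ± 11.5 CPM per kb in WT and 45.9 ± 8.60 in Aim2-/- cells (SD, n = 3), ahead of Ifng at 11.5 ± 2.94 and 22.2 ± 7.37 without overlap of the mice. At 3 h Il4 led in WT cells (119 ± 43.3 CPM per kb) with Ifng next (40.2 ± 15.2) and no overlap, whereas in Aim2-/- cells Il4 (83.5 ± 29.5) and Ifng (81.9 ± 54.4) overlapped. At 6 h Il4 and Ifng had the highest means and overlapped in both genotypes, with means of 137 and 136 CPM per kb in Aim2-/- cells. At 24 h Il2 led in WT cells (127 ± 4.78 CPM per kb) with Ifng second (79.2 ± 24.4), and Ifng led in Aim2-/- cells (262 ± 112) with Il2 second (91.4 ± 14.2), in both cases without overlap. Il22 was the lowest of the 9 genes at every stimulated time in both genotypes.

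**Figure D3:**
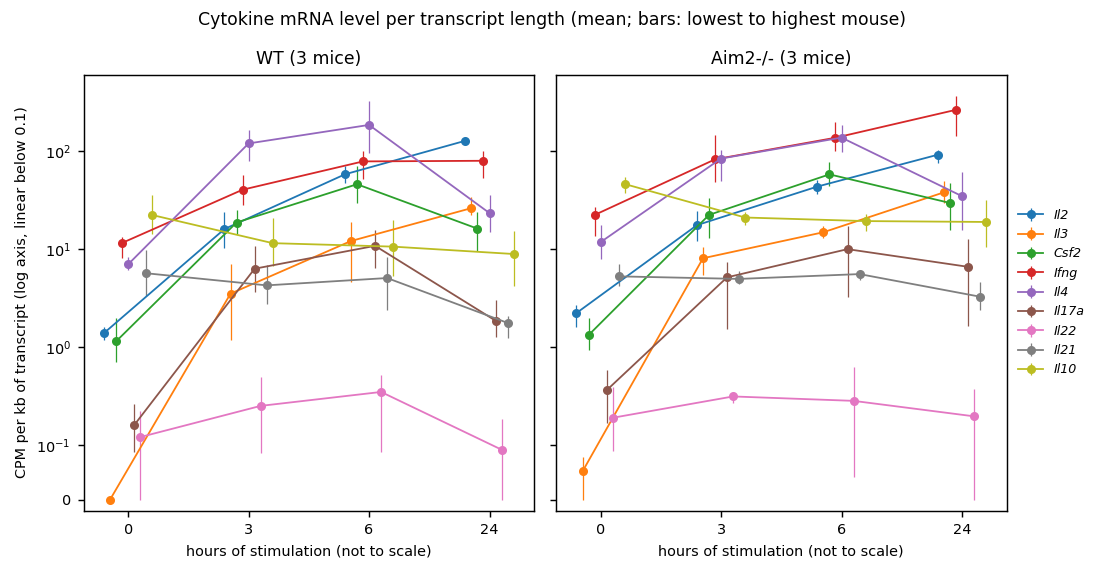
Level of the 9 cytokine genes in CPM per kb of transcript (vertical axis, logarithmic above 0.1 and linear below) at 0, 3, 6 and 24 h (horizontal axis, spaced evenly) in WT (left) and Aim2-/- (right) cells; points are means of 3 mice and bars run from the lowest to the highest mouse. Il10 leads at 0 h in both panels and Il4 at 3 h in WT cells, Il4 and Ifng overlap at the top at 6 h in both and at 3 h in Aim2-/- cells, and at 24 h Il2 leads in WT (127) and Ifng in Aim2-/- cells (262).

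The spread between mice differed between genes. At 24 h the coefficient of variation was 3.77% for Il2 in WT cells and 15.6% in Aim2-/- cells. For Il17a in Aim2-/- cells it was 83.9%, with a 7.67-fold range between mice. For Il10 it was 51.9% to 74.2% in the WT groups, where the mouse labelled WT 1 held the highest value at each time, and 15.5% to 59.7% in the Aim2-/- groups.

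Among the genes with a mean of at least 1 CPM, those whose log2 CPM followed each member most closely over the 24 libraries were searched. These correlations are descriptions over libraries that share mice and times, so any gene that follows the time course scores high. Il2 was followed most closely by Bcat1 (Pearson r = 0.988), a cytosolic aminotransferase of branched-chain amino acids, Lap3 (0.984) and Crabp2 (0.984), and Il3 by the chemokine Ccl1 (0.979), Il2 (0.971) and Bcat1 (0.964). Csf2 was followed by the Th2 cytokine Il13 (0.972), Slc14a1 (0.968) and Tnfsf14 (0.958), Il17a by its chromosomal neighbour and relative Il17f (0.946), Mir155hg (0.927) and Tnfsf14 (0.926), and Ifng by Ly6i (0.950), Socs2 (0.943) and Svbp (0.937). The closest to Il4 were Klhl26 (0.950), Lgals3bp (0.942) and Zbp1 (0.939), to Il10 Dusp14 (0.915), Stx11 (0.893) and Atcay (0.890), and to Il21 the decoy receptor gene Il1r2 (0.908), Fam20a (0.905) and Nrbp2 (0.890). For Il22, which had few counts, the highest values were 0.731 for Gpr153, 0.729 for Hsf4 and 0.709 for Hip1.

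Several members lie beside other cytokine genes. Il13, 12.7 kb from Il4, rose in WT cells by 4.63, 5.84 and 4.65 at 3, 6 and 24 h and in Aim2-/- cells by 3.41, 4.52 and 3.78 (log2 fold change, edgeR adjusted p at most 0.00029). Kif3a, 1.0 kb from Il4 on its other side, encodes a kinesin motor subunit, and its log2 changes from 0 h lay between -0.32 and 0.47, with a call among these only at 24 h in Aim2-/- cells (adjusted p = 0.023). From 3 to 6 h it fell by 0.53 in WT cells, and from 6 to 24 h it rose by 0.54 in WT and 0.53 in Aim2-/- cells (adjusted p from 0.012 to 0.030). Il17f, 42.6 kb from Il17a, rose at 3 and 6 h in both genotypes (3.59 and 4.85 in WT, 4.25 and 5.11 in Aim2-/- cells). It had 3 to 13 counts in the libraries of 0 h and passed the filter through stimulated libraries, so its rises were largely fixed by the filter. At 24 h its change was 1.86 in WT cells (adjusted p = 0.11) and 3.98 in Aim2-/- cells (adjusted p = 0.0014), and the difference between these changes was 2.12 ± 1.48 (SE, adjusted p = 0.598).

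Other genes of these pathways were followed as lists of 18 other T cell cytokines, 16 receptor subunits for the members and 20 regulators of cytokine genes. Of the 17 other cytokines tested, 9 rose and 4 fell at 24 h in WT cells, where 36.6% of all genes rose and 34.8% fell. In Aim2-/- cells 11 rose and 4 fell, where 36.8% of all genes rose and 33.5% fell. Il9, a growth factor of mast cells, went from no counts at 0 h to 1.99 ± 0.923 CPM in WT and 4.08 ± 2.73 CPM in Aim2-/- cells at 24 h, and Il24 from no counts to 1.06 ± 0.552 and 3.73 ± 2.00 CPM (SD, n = 3). Like Il17f, Il9 and Il24 entered the test through stimulated libraries, so their rises, counted above, were largely fixed by the filter. Areg, an epidermal growth factor family ligand, fell: WT cells held 18.3 ± 3.41 CPM at 0 h and 0.545 ± 0.176 CPM at 24 h, and Aim2-/- cells 40.7 ± 7.15 and 1.38 ± 0.806 CPM. Il16 fell as well, with log2 fold changes of -1.68 (WT) and -1.48 (Aim2-/-), as did Ltb, with -1.58 and -1.17. Their median log2 change at 24 h was 1.86 in WT and 1.47 in Aim2-/- cells.

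Among the receptors more fell than rose. Of 15 receptor subunits tested, 1 rose, 8 fell and 6 were not called at 24 h in each genotype. Of all genes, 34.8% fell in WT and 33.5% in Aim2-/- cells, and 36.6% and 36.8% rose. The median log2 change of the receptor subunits was -0.52 in WT and -0.60 in Aim2-/- cells. The subunit that rose was Il2ra, the alpha chain that completes the high-affinity IL-2 receptor, which stood at 100.4 ± 20.9 CPM at 0 h and 772 ± 11.1 CPM at 24 h in WT cells, and at 87.8 ± 13.3 and 789 ± 23.3 CPM in Aim2-/- cells. Both chains of the IFNγ receptor fell. Ifngr1 stood at 1173 ± 177 CPM at 0 h and 87.9 ± 23.6 CPM at 24 h in WT cells, and at 1268 ± 75.4 and 129 ± 7.64 CPM in Aim2-/- cells, and Ifngr2 at 263 ± 68.5 and 29.98 ± 3.23 CPM (WT) and 196 ± 53.8 and 34.6 ± 2.71 CPM (Aim2-/-). Ligand and receptor mRNA of the IFNγ axis thus moved in opposite directions within the same libraries. The log2 fold change of Il17ra was -2.18 in WT cells and that of Il21r -2.04 in Aim2-/- cells. Each is named where it was among the 3 largest falls of the list, and its value in the other genotype is not given here.

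Of the 20 regulators, 5 rose and 14 fell at 24 h in each genotype. Tbx21, the Th1 master regulator, rose by 3.47 ± 0.23 (WT) and 2.28 ± 0.22 (Aim2-/-), Irf4 by 2.12 ± 0.21 and 1.89 ± 0.20, and the AP-1 subunit Fosl1 by 5.465 ± 0.40 and 4.35 ± 0.36 (log2 fold change ± SE). Bcl6, the regulator of follicular helper cells, fell in both genotypes (-3.25 and -3.37), as did the AP-1 subunit Fos (-3.47 and -4.01). Maf, a factor known to act on Il10 and Il21, fell by 2.62 in WT cells. Eomes, a T-box factor that acts on Ifng, fell by 2.33 in Aim2-/- cells. Both are named where they were among the 3 largest falls, and no difference between genotypes is meant. In WT mice 1, 3 and 4 Eomes stood at 45.4, 28.5 and 19.2 CPM at 0 h and 14.8, 11.2 and 19.5 CPM at 24 h. The change of Maf in Aim2-/- cells is not given here. Of all genes tested, 36.6% rose and 34.8% fell at 24 h in WT cells and 36.8% and 33.5% in Aim2-/- cells.

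Aim2-/- cells were compared with WT cells at each time. By edgeR, none of the 9 members differed at adjusted p under 0.05 at 0, 3, 6 or 24 h, where 5.23%, 0.294%, 15.8% and 0.666% of all genes were called. The number of members with an unadjusted p under 0.05 was 0, 2 (Il3 and Ifng), 0 and 2 (Il17a and Ifng), where 23.8%, 15.3%, 34.1% and 20.5% of all genes had one. DESeq2 called 0, 0, 0 and 1 (Ifng at 24 h), with 10.2%, 2%, 21.6% and 5.14% of all genes, and limma-voom called none, with 5.23%, 0.411%, 16.3% and 0.0326%. The comparisons at the 4 times used libraries of the same 6 mice, so they do not repeat each other independently. Whether the mice were littermates is not given in the sources used here.

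For Il10 the call depended on the mouse labelled WT 1. With all 6 mice the log2 difference between Aim2-/- and WT cells was 1.05 ± 0.52, 0.87 ± 0.53, 0.86 ± 0.53 and 1.08 ± 0.54 (SE) at 0, 3, 6 and 24 h, and did not pass the test (edgeR adjusted p = 0.222, 0.438, 0.255 and 0.258). At 0 h every Aim2-/- mouse lay above every WT mouse (48.4 to 70.8 against 18.8 to 46.4 CPM), and at the later times the mouse labelled WT 1, at 27.0, 25.6 and 19.96 CPM, lay within the Aim2-/- range. Without the mouse labelled WT 1 Il10 was higher in Aim2-/- cells at each of the 4 times, by 1.56 ± 0.35, 1.60 ± 0.36, 1.66 ± 0.37 and 1.72 ± 0.37, with adjusted p of 0.0184, 0.0288, 0.0142 and 0.0348. In that fit 4.27%, 1.97%, 7.83% and 0.92% of all genes were higher in Aim2-/- cells, and the other WT mice, 3 and 4, stood below all Aim2-/- mice at each time. The mouse labelled WT 1 had the highest Il10 of its group at every time. Leaving it out therefore raises the difference at each time, and the summed one, by construction, and only WT mice 3 and 4 remain. Summing the 4 libraries of each mouse, which counts a mouse once, the Il10 difference was 0.99 ± 0.40 in all mice (adjusted p = 0.199) and 1.64 ± 0.19 without the mouse labelled WT 1 (adjusted p = 0.0216), where 0.753% of genes were higher (0.0117% called with all mice). Myeloid cells and B cells also make IL-10. At 0 h the 6 myeloid markers summed to 99.7 to 325 CPM in Aim2-/- and 31.4 to 52.1 CPM in WT libraries, and the 6 B cell markers to 16.2 to 42.3 and 8.37 to 10.2 CPM, with 4 of the 6 and 3 of the 6 markers higher in every Aim2-/- than in every WT library. Their part in the Il10 difference was not tested.

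Ifng had the difference with the lowest adjusted p among the members with all mice. At 24 h the log2 difference between Aim2-/- and WT cells was 1.73 ± 0.43 (SE, edgeR adjusted p = 0.0605; 0.0132 by DESeq2), and the 3 Aim2-/- mice, at 169.6 to 435 CPM, lay above the 3 WT mice, at 63.3 to 121 CPM. At 0 h the difference was 0.95 ± 0.46 and the groups did not overlap either (16.5 to 32.0 against 9.82 to 16.1 CPM), and at 3 and 6 h it was 1.03 ± 0.43 and 0.80 ± 0.42, with adjusted p from 0.185 to 0.264 at these 3 times. The 24 h value was 1.78 ± 0.52 (adjusted p = 0.105) without the mouse labelled WT 1. It was 2.03 (adjusted p = 0.0035) without Aim2-/- mouse 2, when 8% of all genes were higher in Aim2-/- cells at 24 h, against 0.659% with all mice. Summed in the same way over the libraries of each mouse, the Ifng difference was 1.26 ± 0.32 (adjusted p = 0.132), and 1.497 (adjusted p = 0.0217) without Aim2-/- mouse 2, where 8.32% of genes were higher. Aim2-/- mouse 2 had the lowest Ifng of its group at every time, so leaving it out raises the 24 h and the summed difference by construction. NK cells also make IFNγ, and their 7 markers summed to 143 to 158 CPM in Aim2-/- and 74.5 to 91.7 CPM in WT libraries at 0 h and to 38.6 to 63.5 and 31.4 to 41.7 CPM at 24 h. Only 1 of the 7 separated the genotypes without overlap at either time, Eomes at 0 h and Prf1 at 24 h. Without Eomes, which T cells also express, the sums of the other 6 overlapped at 0 h (48.9 to 73.7 CPM in Aim2-/- and 37.5 to 63.3 CPM in WT libraries). At 24 h the sums of these 6 did not overlap (22.6 to 43.2 CPM in Aim2-/- and 17.7 to 22.2 CPM in WT libraries). The part of NK cells in the Ifng values was not tested.

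**Figure D4:**
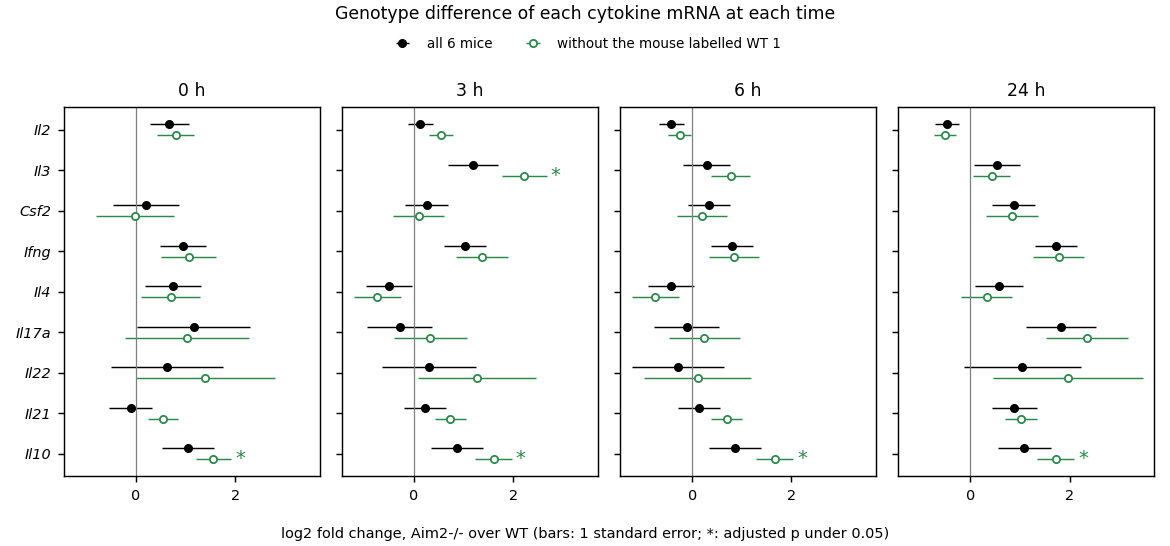
Log2 fold change of Aim2-/- over WT cells (horizontal axes) for the 9 cytokine genes at 0, 3, 6 and 24 h (panels); black points are the fit with all 6 mice, open green points the fit without the mouse labelled WT 1, bars are 1 standard error and stars mark adjusted p under 0.05. With all mice no gene has a star, and without the mouse labelled WT 1 Il10 has a star in all 4 panels and Il3 at 3 h; Il3 is left out at 0 h, where no library held more than 1 count.

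Il2 showed the reverse order at 24 h. There the Aim2-/- mice, at 86.4 to 118 CPM, all lay below the WT mice, at 139 to 149 CPM, yet the log2 difference of -0.47 ± 0.25 did not pass the test (edgeR adjusted p = 0.283). It was -0.42 ± 0.25 at 6 h, 0.13 ± 0.26 at 3 h and 0.68 ± 0.39 at 0 h. For Il3 the difference at 3 h was 1.19 ± 0.50 (adjusted p = 0.271). Without the mouse labelled WT 1 Il3 was higher in Aim2-/- cells at 3 h by 2.22 ± 0.45 (adjusted p = 0.0185), where WT mice 3 and 4 held 1.42 and 0.748 CPM against 3.44 to 6.64 CPM in the Aim2-/- mice. The mouse labelled WT 1 had the highest Il3 of its group at 3 h, at 4.44 CPM, so leaving it out raises this difference by construction. At 6 and 24 h the Il3 difference was 0.30 and 0.53.

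For Il17a the difference was 1.16, -0.29, -0.11 and 1.82 at 0, 3, 6 and 24 h, the last with a standard error of 0.70 and an edgeR adjusted p of 0.16. Without Aim2-/- mouse 2, the mouse with the lowest Il17a of its group, the 24 h value was 2.28 (adjusted p = 0.00722), in a fit with 8% of all genes higher in Aim2-/- cells; leaving out the lowest mouse raises this difference by construction. Gamma delta T cells also make IL-17A, and at 24 h their 5 markers summed to 43.7, 20.7 and 31.7 CPM in Aim2-/- mice 1, 2 and 4 and to 19.1, 19.2 and 22.7 CPM in WT mice 1, 3 and 4, with 0 of the 5 higher in every Aim2-/- than in every WT library. Their part in the Il17a values was not tested. For Il4 it was 0.75, -0.51, -0.43 and 0.58, for Csf2 0.21, 0.26, 0.33 and 0.87, for Il21 -0.11, 0.22, 0.13 and 0.89, and for Il22 0.63, 0.31, -0.29 and 1.05, and none of these passed the test. Each of these 5 genes changed sign at 1 or more of the times when 1 library or mouse was left out. Il21 at 24 h stood at 7.41 to 14.1 CPM in Aim2-/- and 3.80 to 6.38 CPM in WT mice, without overlap. At 24 h the standard errors ran from 0.25 for Il2 to 1.18 for Il22. Without the mouse labelled WT 1 the 24 h differences were -0.50 for Il2, 0.43 for Il3, 0.33 for Il4, 2.34 for Il17a, 1.02 for Il21, 1.96 for Il22 and 0.84 for Csf2, and none of these 7 passed the test (adjusted p from 0.127 to 0.767).

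Whether stimulation acted differently in the 2 genotypes was tested as an interaction. By edgeR, DESeq2 and limma-voom none of the 9 members was called at 3, 6 or 24 h; by edgeR, 0, 4 and 0 of all 15325 genes were called (0%, 0.0261% and 0%) and 0, 1 and 1 members had an unadjusted p under 0.05, near the shares of all genes with one (4.26%, 13.2% and 11.9%). This member was Il2 in both cases: its log2 fold change over 0 h in Aim2-/- minus that in WT cells was -1.09 ± 0.46 at 6 h and -1.15 ± 0.46 at 24 h (edgeR adjusted p = 0.299 and 0.319, and 0.0836 and 0.0749 with mouse as a block). At 3 h the Il2 difference was -0.55. Without the mouse labelled WT 1 it was -1.05 at 6 h and -1.31 at 24 h (adjusted p = 0.375 and 0.218). For Il4 it was -1.26, -1.18 and -0.18 at 3, 6 and 24 h, with an adjusted p of 0.0638 at 6 h with mouse as a block and 0.508 without. At 24 h the differences of the other members were 0.04 for Il10, 0.66 for Il17a, 0.99 for Il21, 0.42 for Il22, 0.78 for Ifng and 0.66 for Csf2. Without the mouse labelled WT 1 the 24 h values were -0.37 for Il4, 0.16 for Il10, 1.31 for Il17a, 0.47 for Il21, 0.57 for Il22, 0.72 for Ifng and 0.85 for Csf2, and the Il4 value was -1.44 at both 3 and 6 h, with no member called. No value is given for Il3, whose 0 h level was at the floor.

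Genes of the lists around the members were called in part between genotypes. Of 17 other cytokines tested, 3 were higher in Aim2-/- cells at 0 h, 2 higher and 1 lower at 6 h and 1 higher at 24 h. Of 15 receptor subunits, 4 were higher at 0 h, 3 higher and 1 lower at 6 h and 1 higher at 24 h. Of 20 regulators, 5 were higher at 0 h and 2 higher and 5 lower at 6 h. At 3 h edgeR called 0 genes of the 3 lists, where 6 cytokines, 7 receptor subunits and 2 regulators had an unadjusted p under 0.05, as had 15.3% of all genes. The shares of all genes called at adjusted p under 0.05, as above, were 5.23%, 0.294%, 15.8% and 0.666% at 0, 3, 6 and 24 h. When the mouse labelled WT 1 was left out, 2 cytokines, 4 receptor subunits and 6 regulators were higher and 0, 1 and 0 lower at 0 h, and 2, 3 and 2 were higher and 2, 2 and 3 lower at 6 h. At 3 h 0, 0 and 1 were higher and 1, 1 and 0 lower, and at 24 h 0, 1 and 2 were higher and 0, 0 and 0 lower. In that fit 4.27%, 1.97%, 7.83% and 0.92% of all genes were higher at 0, 3, 6 and 24 h. The share of all genes lower in that fit is not given here, so the counts of lower genes stand without one.

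Il6, Areg and Ebi3 were the cytokines higher in Aim2-/- cells at 0 h (5.13 ± 2.05 against 1.16 ± 0.560 CPM for Il6, SD, n = 3), and Il6 was higher at 6 and 24 h as well. Leaving out the mouse labelled WT 1, Il6 differed by 1.81, 1.87 and 2.73 at 0, 6 and 24 h (log2 fold change, edgeR adjusted p = 0.0775, 0.0469 and 0.06) and Ebi3 by 1.04 at 0 h (adjusted p = 0.0823), so that the calls of Il6 at 0 and 24 h and of Ebi3 at 0 h were lost, and that of Areg was kept (1.31, adjusted p = 0.0164). Tnf, at 238 ± 5.34 against 369 ± 7.57 CPM, was lower in Aim2-/- cells at 6 h (-0.63, and -0.65 without the mouse labelled WT 1, adjusted p = 0.0436).

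The receptor beta chain genes Csf2rb, shared by the IL-3 and GM-CSF receptors, and Csf2rb2 were higher at 0 h by 2.16 and 2.34. At 6 h Csf2rb and Csf2rb2 were higher by 1.62 and 1.55 (log2 fold change, edgeR adjusted p from 0.017 to 0.0368 over both times). Leaving out the mouse labelled WT 1, these values were 1.95, 2.05, 2.06 and 1.88 (adjusted p from 0.0282 to 0.0472). Il2rb, the beta chain of the IL-2 receptor, was higher at 0 h by 0.55 (0.59 without that mouse). The IL-10 receptor chains Il10rb and Il10ra were higher at 6 h (0.67, and 0.62 without it) and 24 h (0.79, and 0.92) respectively. Il2ra was lower at 6 h (-0.50), a call lost without the mouse labelled WT 1 (-0.46, adjusted p = 0.0742). Basophils and myeloid cells express Csf2rb and Il6, and the marker sums of these cells, given above, differed between the genotypes in the same direction. Their part was not tested.

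Among the regulators Eomes, Tbx21 and Batf were higher at 0 h by 1.52, 0.96 and 0.68, and by 1.90, 1.14 and 0.81 without the mouse labelled WT 1 (adjusted p at most 0.0189). NK cells express Eomes, Tbx21 and Il2rb, and the NK cell marker sums above, which include Eomes itself, stand beside these values. At 6 h Batf and Gata3 were higher by 0.78 and 0.35, and Irf4, Rel and Fos were lower (-0.80, -0.55 and -0.48). The call of Gata3 was lost without the mouse labelled WT 1 (0.32, adjusted p = 0.101) and those of Batf (0.86), Irf4 (-0.81), Rel (-0.48) and Fos (-0.63) were kept. Group 2 innate lymphoid cells express Gata3, and their 3 markers, Gata3 among them, summed at 6 h to 247 to 322 CPM in Aim2-/- and 188 to 226 CPM in WT libraries, with 1 of the 3 (Gata3) free of overlap. The part of these cells was not tested.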

How the data were processed

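Splenic CD4+ T cells of 6 mice were stimulated and sequenced as stranded mRNA libraries. Per the labels and the methods of the study, the authors used STAR with GRCm38 and deposited raw read counts per gene (54446 rows), without normalization; whether strand was used in counting is not given in the sources used here. CPM (counts per 1e6 counts, TMM-scaled) were computed here from the deposited counts.

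The main test was edgeR (4.0.16) quasi-likelihood F, two-sided, over all 24 libraries with 1 mean per group, filterByExpr (minimum count 10) and Benjamini-Hochberg adjustment over 15325 genes. It was checked on simulated counts of independent libraries with a single dispersion for all genes. That check cannot show how the test does when libraries share a mouse. Standard errors derive from the F statistic. A floor of 3 counts covers counting error only. The common dispersion was 0.0346. Alternatives were RLE factors, library totals, DESeq2 (1.42.0), limma-voom (limma 3.58.1), other filters, only the libraries compared, blocks, and each library or mouse left out.

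Libraries of 1 mouse pair by label: 36 same-mouse pairs correlated with r from 0.139 to 0.567, against -0.432 to 0.0742 for 72 pairs of different mice. These r were computed on log CPM after the mean of each group was subtracted, and not on the levels themselves. That subtraction pushes r between different mice towards negative values, so the contrast was partly fixed in advance.

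Named genes were the 9 members in every comparison, Aim2, neighbours, the 3 most correlated genes per member, and from each list up to 3 calls a direction (24 h stimulation, and genotype). Members, lists and tests were chosen with earlier results of these data known. Positions are those of GENCODE M21 (GRCm38); transcript lengths are of the longest coding transcript.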

Additional observations from a re-analysis of the deposited data

How the results depend on the processing

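Across these alternatives, 930 of the log2 fold changes of single members kept their direction and side of the threshold, 65 passed it in addition, 5 no longer passed it and 11 reversed. When a library or mouse was left out, 1245 kept both, 25 passed in addition, 41 no longer passed and 78 reversed. The calls lost to limma-voom were Il4 at 24 h in both genotypes (adjusted p = 0.0831 and 0.0759), Il17a at 24 h in WT cells (0.108) and at 3 h in Aim2-/- cells (0.0596), and fitting only the libraries compared lost Il3 from 3 to 6 h in WT cells (0.0959). Without Aim2-/- mouse 4, Ifng at 3 h in Aim2-/- cells had an adjusted p of 0.0526. The cause was not tested in any of these cases.

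With mouse as a replicate block, 6 members were called from 3 to 6 h in WT cells, 5 in Aim2-/- cells, and 7 from 6 to 24 h in Aim2-/- cells. Without a filter on low counts, 6 members were called from 6 to 24 h in Aim2-/- cells (25.1% of all genes), and between genotypes 2 (Il10 and Ifng), 2 (Il3 and Ifng), 2 (Il2 and Ifng) and 3 (Il10, Il17a and Ifng) at 0, 3, 6 and 24 h (4.78%, 2.47%, 9.38% and 3.07%), 1 in the difference of the 24 h response (Il2; 0.494%) and 1 with libraries summed (Ifng; 1.73%). None of these genotype calls was made with the filter. DESeq2 called Ifng between genotypes, 1 call at 24 h (5.14%) and 1 with libraries summed (10.1%). WT and Aim2-/- mice of the same number are different animals, so their pairing is only a shared number. Aim2-/- mouse 2 and WT mouse 3 have no partner of their number. A block by number takes up their levels, so the genotype difference rests on the other mice, whose libraries stand as replicates. Both left-out mice had the lowest Ifng of their group at every time, and Aim2-/- mouse 2 also the lowest Il17a. With that number as a block, 2, 2, 2 and 3 members were called at 0, 3, 6 and 24 h (Il10 and Ifng at each, Il17a also at 24 h). In that fit 23.6%, 15.2%, 36% and 21.1% of all genes were called, and the Il17a difference became 0.065 at 3 h and 0.15 at 6 h. Other reversals were of values near 0: Il21 at 3 h in Aim2-/- cells with library totals (0.022), Il22 at 24 h in Aim2-/- cells with RLE factors (-0.025), DESeq2 (-0.023), limma-voom (-0.42) and no filter (-0.0047), Il21 between genotypes at 0 h with limma-voom (0.028), and in the difference of the 24 h response Il10 with limma-voom (-0.020) and only the libraries compared (-0.011) and Il22 with limma-voom (-0.16).

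Leaving out 1 library or mouse, the members called ranged from 1 to 3 (WT; 9.83% to 22.4% of all genes) and 1 to 2 (Aim2-/-; 12.7% to 24.5%) for 3 to 6 h. Between genotypes they ranged from 0 to 1 at 0 h (Il10; 0.191% to 13.7%), 0 to 2 at 3 h (Il3 and Il10; 0.00635% to 7.31%), 0 to 1 at 6 h (Il10; 0.607% to 25.7%), 0 to 2 at 24 h (Il10, Il17a and Ifng; 0% to 17.3%) and 0 to 1 with libraries summed (Il10 and Ifng; 0% to 16.7%). Log2 values whose sign changed ranged as follows. Against 0 h, Il21 ran from -0.93 to 0.22 (3 h) and -0.72 to 0.46 (6 h) in WT and from -0.32 to 0.23 and -0.093 to 0.30 in Aim2-/- cells, and Il22 from -1.30 to 0.33 (WT, 24 h), -0.81 to 1.58 (Aim2-/-, 6 h) and -1.08 to 1.06 (24 h). Il4 from 3 to 6 h in WT cells ran from -0.030 to 0.94 and Il17a from 6 to 24 h in Aim2-/- cells from -1.47 to 0.055. Between genotypes at 0 h Il21 ran from -0.42 to 0.55, Il22 from -0.46 to 1.40 and Csf2 from -0.24 to 0.82. At 3 h Il2 ran from -0.20 to 0.55, Il17a from -0.63 to 0.33, Il21 from -0.025 to 0.73, Il22 from -0.12 to 1.27 and Csf2 from -0.15 to 0.53. At 6 h Il3 ran from -0.13 to 0.78, Il4 from -0.74 to 0.23, Il17a from -0.77 to 0.30, Il21 from -0.24 to 0.70 and Il22 from -1.67 to 0.21, and at 24 h Il4 from -0.13 to 1.01. In the difference of the 24 h response Il4 ran from -0.88 to 0.26, Il10 from -0.57 to 0.67, Il17a from -0.28 to 1.31 and Il22 from -0.70 to 1.498. The low counts of Il22, and of Il3 and Il17a at 0 h, limit what these values can show.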
